A study of Homo sapiens with 6 samples.

Results

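The genes described here are 10 that encode the SIN3 corepressor scaffolds, 3 class I histone deacetylases and core subunits that work with them. They are SIN3A, SIN3B, HDAC1, HDAC2, HDAC3, SAP30, RBBP4, RBBP7, ARID4A and ARID4B. HDAC8, also of class I, is not among them and is given below with the other zinc-dependent deacetylases. The 10 genes were chosen by symbol, and all were found among the 25827 features of the deposited table and passed the filter on low values. The assay was PRO-seq, in which polymerases engaged on DNA extend their nascent RNA in permeabilized cells and that RNA is sequenced, in SBC-3, an established human small cell lung cancer line labelled wild type. Cells were reverse transfected with siSFPQ-2 or siSFPQ-3, both siRNAs against SFPQ, or with the control siRNA siCtrl, each at 10 nM, and were permeabilized after 72 h, with n = 2 libraries in each of the 3 groups. All groups share the parental line and the transfection, and nothing in the labels ties the libraries of a group to separate cultures, so that p-values reflect only the spread between these libraries, possibly a technical one. The study's stated question is how SFPQ acts on the transcription and stability of primary microRNA transcripts.

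SIN3A and SIN3B are large scaffold proteins that bind no DNA themselves. DNA-bound repressors such as the MAD family partners of MAX recruit them, and the scaffolds carry HDAC1 or HDAC2, which remove acetyl groups from histone tails and so help to keep nearby promoters repressed. The same deacetylases and the histone-binding proteins RBBP4 and RBBP7 also work in the NuRD complex, and HDAC3 works mainly in the NCoR and SMRT complexes. SFPQ, an RNA- and DNA-binding protein of nuclear paraspeckles, has itself been described as a partner of SIN3A in repression.

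The libraries held between 12072813 and 18475158 recovered reads, and the 10 genes had between 279 and 5390 of them in any library. Values below are normalized reads as deposited, and fold changes are of normalized reads plus 1 on the log2 scale, siSFPQ over siCtrl, which understates changes of low genes. The test was limma over 21773 features with at least 10 normalized reads in at least 2 libraries, and a gene was called where its Benjamini-Hochberg adjusted p was under 0.05. SFPQ itself gave 1825, 1972, 1922 and 2466 normalized reads in the siSFPQ libraries, against 2295 and 2435 in siCtrl, a log2 fold change of -0.22 that missed the threshold (adjusted p = 0.137). An siRNA acts on the mature mRNA, so these reads do not measure the knockdown. Without the second siSFPQ-3 library SFPQ passed at -0.31 (adjusted p = 0.0256, with 0.0256 to 0.441 over 14 alternatives). Of 10 neuroendocrine and small cell markers 6 were analysed here, with summed normalized reads of 383 to 611 in siSFPQ and 553 to 575 in siCtrl libraries. Of the 5 tested, DLL3 and POU2F3 fell and 3 did not pass. SYP, the largest part of each sum, was at 338 and 412 with siSFPQ-2, 187 and 232 with siSFPQ-3, against 283 and 226 in siCtrl. CHGA was at 0 in 1 siSFPQ-3 library and at most 5.54 in the others. The 3 fibroblast markers analysed summed to 508 to 639 in siSFPQ and 316 to 334 in siCtrl libraries, mostly through COL1A1. TEK, the only endothelial marker analysed, lay at 88.2 to 145 in siSFPQ and 38.3 to 48.7 in siCtrl libraries, and CD79A, the only leukocyte marker analysed, at 25.8 to 42.5 in siSFPQ and 6.38 to 19.9 in siCtrl libraries. Of 20 proliferation genes, 19 fell with both siRNAs and MCM7 (-0.22) did not pass, with a median log2 fold change of -1.02. Over all features tested 23.2% fell. The part of these marker shifts in the results below was not tested, and in bulk samples fewer cells of a type and less RNA per cell cannot be told apart.

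With both siRNAs together, nascent reads of HDAC1, ARID4B and ARID4A rose, those of SAP30 and RBBP7 fell, and SIN3A, SIN3B, HDAC2, HDAC3 and RBBP4 did not pass the test. HDAC1 changed most, by 1.62-fold. The 5 called genes of 10 stand beside 48.0% of the 21773 features tested (24.8% higher, 23.2% lower), so the share of called genes was close to that of all features. The median absolute log2 fold change of the 10 genes was 0.27, against 0.39 over all features, and the median signed change was 0.12, against -0.02. Each of the genes whose change was called had all 4 siSFPQ libraries above or all 4 below both siCtrl libraries, as did SIN3A, SIN3B and HDAC2, which makes 8 of 10 where all features gave 61.3%. On the recovered reads edgeR (48.4% of all features called) and DESeq2 (40.4%) called the same 5 genes in the same directions.

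**Figure D1:**
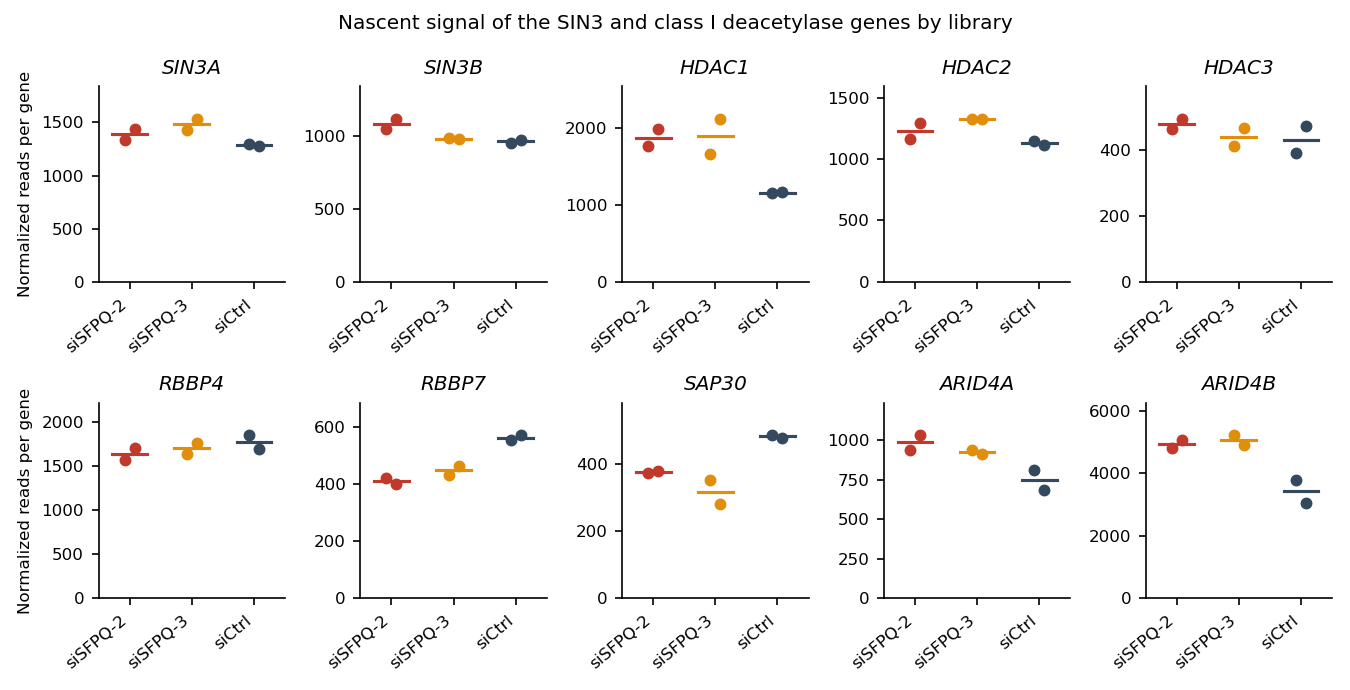
Normalized reads per gene (vertical axes, starting at 0) in the 2 libraries of siSFPQ-2, siSFPQ-3 and siCtrl, with points for libraries and bars for group means. For HDAC1, ARID4A and ARID4B the 4 siSFPQ points lie above both siCtrl points, for SAP30 and RBBP7 below them, and for HDAC3 and RBBP4 the groups overlap.

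The promoters of the called genes are shown because their nascent signal changed and because start windows are compared below. Sequences are from RefSeq on GRCh38.p14, each running from 250 bases before to 50 bases after the annotated gene start, 5′ to 3′ on the strand of the gene. Capitals mark GC boxes (GGGCGG, or CCGCCC on the other strand) and CCAAT boxes (CCAAT, or ATTGG on the other strand). A window at the annotated start was found for 8 of the 10 genes, and not for SIN3B and ARID4B. The HDAC1 window is chr1:32291833-32292132 on the plus strand, the ARID4A window chr14:58298305-58298604 on the plus strand, the SAP30 window chr4:173370704-173371003 on the plus strand, and the RBBP7 window chrX:16870313-16870612 on the minus strand.
HDAC1: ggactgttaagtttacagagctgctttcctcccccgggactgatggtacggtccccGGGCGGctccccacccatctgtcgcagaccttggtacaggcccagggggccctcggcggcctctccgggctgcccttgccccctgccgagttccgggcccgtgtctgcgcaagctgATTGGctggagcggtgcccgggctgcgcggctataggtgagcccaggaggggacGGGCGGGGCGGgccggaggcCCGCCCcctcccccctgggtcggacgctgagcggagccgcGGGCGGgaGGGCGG
ARID4A: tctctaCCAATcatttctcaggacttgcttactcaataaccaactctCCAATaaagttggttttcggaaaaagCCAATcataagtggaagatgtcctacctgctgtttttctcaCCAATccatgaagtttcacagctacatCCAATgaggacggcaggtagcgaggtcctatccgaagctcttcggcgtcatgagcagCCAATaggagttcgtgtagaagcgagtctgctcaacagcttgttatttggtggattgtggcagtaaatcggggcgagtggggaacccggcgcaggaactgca
SAP30: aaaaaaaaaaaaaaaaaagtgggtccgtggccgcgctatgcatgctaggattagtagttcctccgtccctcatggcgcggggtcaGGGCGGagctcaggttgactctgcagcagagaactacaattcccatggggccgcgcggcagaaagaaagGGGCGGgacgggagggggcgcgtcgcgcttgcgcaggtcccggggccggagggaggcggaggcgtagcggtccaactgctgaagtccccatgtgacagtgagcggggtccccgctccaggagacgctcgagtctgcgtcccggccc
RBBP7: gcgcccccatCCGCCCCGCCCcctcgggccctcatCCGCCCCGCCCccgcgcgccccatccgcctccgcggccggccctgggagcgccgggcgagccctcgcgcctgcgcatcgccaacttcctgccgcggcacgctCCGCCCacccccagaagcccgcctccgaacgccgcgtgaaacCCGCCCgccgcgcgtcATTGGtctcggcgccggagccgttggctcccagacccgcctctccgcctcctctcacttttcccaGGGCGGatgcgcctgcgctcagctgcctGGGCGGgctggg

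These 4 windows differ in composition. The HDAC1 window is 73.67% G and C and holds 6 GC boxes, of which a pair near the start overlap by a base, and 1 CCAAT box. RBBP7, which fell, has the richest window at 78.33% with 8 GC boxes, including overlapping pairs, and 1 CCAAT box. ARID4A, which rose, is 48% G and C with 6 CCAAT boxes and no GC box, and SAP30, which fell, is 64% with 2 GC boxes and no CCAAT box. Over 35116 promoter windows of the same length, 45.0% held at least 1 GC box, 2.86% at least 6 and 0.812% at least 8, while 34.6% held a CCAAT box and 0.122% at least 6, and the median G and C content was 58.67%. Windows of HDAC2 held neither box, and those of SIN3A, HDAC3 and RBBP4 held between 1 and 3 GC boxes. Words for E2F (TTTGGCGC, TTTCCCGC, TTTGCCGC and TTTCGCGC, both strands), present in 3.31% of all windows, were in none of the 8 windows at gene starts, nor were the NRF1 palindrome (1.24%) and the cyclic AMP response word TGACGTCA (1.85%). The E-box CACGTG (7.26%) was in the RBBP4 window and the ETS word CCGGAA (17.2%) in that of HDAC1. A match is a description of letters and not of a bound site.

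Neither scaffold gene passed the test. SIN3A (chromosome 15, 75369379 to 75455815, minus strand, GRCh38.p14) had 1338 and 1437 normalized reads with siSFPQ-2, 1428 and 1535 with siSFPQ-3, against 1301 and 1282 in siCtrl. The 4 siSFPQ values were all above both siCtrl values, but by little, and the log2 fold change of 0.15 (SE 0.09) did not pass (limma, adjusted p = 0.194), with a 95% interval of -0.05 to 0.35. SIN3B (chromosome 19, 16829398 to 16880349, plus strand) had 1045 and 1116 with siSFPQ-2, 982 and 977 with siSFPQ-3, against 952 and 968 in siCtrl. The siSFPQ-3 libraries lay close above siCtrl and the siSFPQ-2 libraries further above, and the log2 fold change over both siRNAs was 0.10 (SE 0.09, adjusted p = 0.378, 95% interval -0.10 to 0.29).

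Of the 3 catalytic subunit genes HDAC1 rose, and HDAC2 and HDAC3 did not pass. HDAC1 (chromosome 1, 32292083 to 32333626, plus strand) had 1759 and 1982 normalized reads with siSFPQ-2, 1666 and 2121 with siSFPQ-3, against 1151 and 1164 in siCtrl. The lowest siSFPQ library was well above the higher siCtrl library, although replicates of each siRNA were spread more widely than those of siCtrl. The means were 1882 ± 207 (SD, n = 4) in siSFPQ and 1158 ± 9.51 (SD, n = 2) in siCtrl, a log2 fold change of 0.69 (SE 0.11, limma, adjusted p = 0.000611, 95% interval 0.45 to 0.94). It stayed past the threshold under each of 14 alternatives, with adjusted p between 1.07e-06 and 0.0149. The authors' deposited table gave HDAC1 a log2 fold change of 0.70 and an adjusted p of 1.86e-06. In the authors' deposited table the adjusted p was also under 0.05 for ARID4B (7.72e-05), SAP30 (0.0119), RBBP7 (0.0187) and ARID4A (0.0273), in the directions given here, and between 0.271 and 0.67 for the other 5 genes.

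HDAC2 encodes the paralogue that shares complexes with HDAC1. HDAC2 (chromosome 6, 113933028 to 113971148, minus strand) had 1163 and 1291 normalized reads with siSFPQ-2, 1328 and 1325 with siSFPQ-3, against 1147 and 1110.0 in siCtrl. The groups did not overlap, but the lower siSFPQ-2 library lay close to the higher siCtrl library and the log2 fold change of 0.18 (SE 0.09) did not pass (adjusted p = 0.133, 95% interval -0.02 to 0.38). HDAC3 (chromosome 5, 141620881 to 141636849, minus strand) had 466 and 496 with siSFPQ-2, 414 and 468 with siSFPQ-3, against 391 and 473 in siCtrl. The HDAC3 groups overlapped, and the log2 fold change was 0.10 (SE 0.12, adjusted p = 0.517, 95% interval -0.16 to 0.35). Without the first siCtrl library its sign turned, to -0.04 (adjusted p = 0.86, with 0.274 to 0.86 over 14 alternatives).

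Of the histone-binding pair, RBBP7 fell and RBBP4 did not pass. RBBP7 (chromosome X, 16844341 to 16870362, minus strand), whose WD-repeat protein also serves the histone acetyltransferase HAT1, had 419.8 and 399 normalized reads with siSFPQ-2, 432 and 462 with siSFPQ-3, against 554 and 570.5 in siCtrl. All siSFPQ libraries were below siCtrl, with means of 428 ± 26.4 in siSFPQ (SD, n = 4) and 562 ± 11.7 in siCtrl (SD, n = 2) and a log2 fold change of -0.39 (SE 0.10, limma, adjusted p = 0.00783). RBBP4 (chromosome 1, 32651208 to 32686211, plus strand), which also belongs to chromatin assembly factor 1, had 1569 and 1709.7 with siSFPQ-2, 1634 and 1765 with siSFPQ-3, against 1849.8 and 1696 in siCtrl. Its groups overlapped, and the log2 fold change was -0.09 (SE 0.09, adjusted p = 0.473, 95% interval -0.30 to 0.12). The RBBP7 call rested on having both siCtrl libraries: without the first or the second the log2 fold change was -0.42 (adjusted p = 0.0585) or -0.37 (adjusted p = 0.084), with 0.00269 to 0.084 over 14 alternatives.

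SAP30 encodes a small subunit that binds the SIN3 scaffold and steadies its hold on the deacetylase. SAP30 (chromosome 4, 173370954 to 173377532, plus strand) had 374 and 379 normalized reads with siSFPQ-2, 352 and 283 with siSFPQ-3, against 486 and 479 in siCtrl. Every siSFPQ library was below both siCtrl libraries, and the second siSFPQ-3 library was the lowest. The means were 347 ± 44.4 (SD, n = 4) in siSFPQ and 482 ± 5.37 (SD, n = 2) in siCtrl, a log2 fold change of -0.48 (SE 0.12, limma, adjusted p = 0.0063). Without the first or the second siCtrl library this became -0.47 (adjusted p = 0.0663) or -0.50 (adjusted p = 0.0591), with 0.00129 to 0.0663 over 14 alternatives.

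ARID4A and ARID4B encode related subunits with chromatin-reading domains that were first known as partners of the retinoblastoma protein. ARID4B (chromosome 1, 235166902 to 235328179, minus strand) had 4804 and 5063 normalized reads with siSFPQ-2, 5215 and 4886 with siSFPQ-3, against 3794 and 3044 in siCtrl. All siSFPQ libraries were above siCtrl and close together, while the siCtrl libraries lay further apart. The means were 4992 ± 184 (SD, n = 4) in siSFPQ and 3419 ± 529.9 (SD, n = 2) in siCtrl, a log2 fold change of 0.55 (SE 0.12, limma, adjusted p = 0.0028). ARID4A (chromosome 14, 58298555 to 58373876, plus strand) had 938 and 1029.8 with siSFPQ-2, 934 and 914 with siSFPQ-3, against 807 and 687 in siCtrl. These groups did not overlap either, and the log2 fold change was 0.35 (SE 0.10, adjusted p = 0.0145). In both genes the second siCtrl library was the lowest, and without it neither passed: ARID4B gave 0.40 (adjusted p = 0.0614, with 3.56e-05 to 0.0614 over 14 alternatives) and ARID4A 0.24 (adjusted p = 0.202, with 0.00464 to 0.202).

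**Figure D2:**
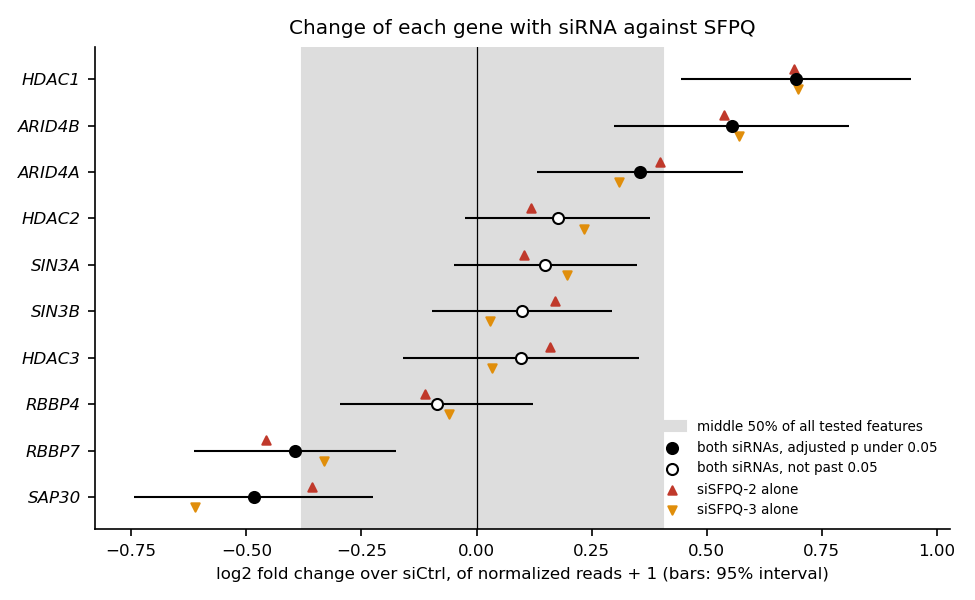
Log2 fold change over siCtrl of normalized reads plus 1 (horizontal axis) for each gene, with black circles and 95% intervals for both siRNAs, filled where the adjusted p was under 0.05, and triangles for siSFPQ-2 and siSFPQ-3 alone. The grey band holds the middle 50% of all tested features, from -0.38 to 0.40, and HDAC1, ARID4B, RBBP7 and SAP30 lie outside it.

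Each siRNA alone called 4 of the 10 genes, beside 39.2% of all features with siSFPQ-2 and 43.4% with siSFPQ-3. With siSFPQ-2, HDAC1 (log2 fold change 0.69), ARID4B (0.54) and ARID4A (0.40) rose and RBBP7 (-0.46) fell, beside 21.2% of all features higher and 17.9% lower. With siSFPQ-3, HDAC1 (0.70) and ARID4B (0.57) rose and SAP30 (-0.61) and RBBP7 (-0.33) fell, beside 23.0% higher and 20.4% lower. SAP30 missed the threshold with siSFPQ-2 (-0.36, limma, adjusted p = 0.0583) and ARID4A with siSFPQ-3 (0.31, adjusted p = 0.0525). These comparisons share the siCtrl libraries. The difference between the siRNAs was tested itself: siSFPQ-3 against siSFPQ-2 called 0 of the 10 genes with limma, edgeR or DESeq2, and none had an unadjusted p under 0.05, beside 0.101% of all features called by limma, 0.234% by edgeR and 1.33% by DESeq2. For HDAC1 the 95% interval of that log2 difference was -0.28 to 0.30, and for SAP30, which differed most, -0.55 to 0.04.

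Per kilobase of RefSeq gene span, the highest mean was that of SAP30, the shortest of the genes, with 52.7 ± 6.76 (SD, n = 4) normalized reads per kilobase in siSFPQ and 73.3 ± 0.816 (SD, n = 2) in siCtrl. In the second siSFPQ-3 library SAP30, at 42.9, was below RBBP4 (50.4) and HDAC1 (51.0). RBBP4 followed with 47.7 in siSFPQ and 50.6 in siCtrl, and HDAC1 had 45.3 in siSFPQ and 27.9 in siCtrl. The deacetylase HDAC2 stood at 33.5 in siSFPQ and 29.6 in siCtrl, ARID4B at 31.0 in siSFPQ and 21.2 in siCtrl, and HDAC3 at 28.9 in siSFPQ and 27.1 in siCtrl. SIN3B (20.2 in siSFPQ, 18.8 in siCtrl), SIN3A (16.6 in siSFPQ, 14.9 in siCtrl), RBBP7 (16.5 in siSFPQ, 21.6 in siCtrl) and ARID4A (12.7 in siSFPQ, 9.92 in siCtrl) were the lowest 4 in siSFPQ. In siSFPQ the ranges of SAP30, RBBP4 and HDAC1 overlapped in that order, as did those of HDAC2, ARID4B and HDAC3, and those of SIN3A and RBBP7. Within every siSFPQ library, however, HDAC2 was above ARID4B and ARID4B above HDAC3. Differences between genes per kilobase were not tested. In siCtrl HDAC2 was above HDAC1 in both libraries, while HDAC3 overlapped with each of them, and RBBP7, ARID4B and SIN3B overlapped in turn. Which part of each gene was counted is not stated, so the span is an approximate length.

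Ratios between paralogues, taken per kilobase within each library, restate these shifts. HDAC1 over HDAC2 was 1.39 and 1.41 with siSFPQ-2, 1.15 and 1.47 with siSFPQ-3, against 0.921 and 0.962 in siCtrl. Per kilobase HDAC1 was thus below HDAC2 in both siCtrl libraries and above it in all 4 siSFPQ libraries, a log2 difference of 0.52 between the groups' mean ratios. That crossing rests on the approximate spans: in normalized reads not divided by length, HDAC1 over HDAC2 was 1.254 to 1.601 in siSFPQ libraries, against 1.003 and 1.049 in siCtrl, with the same log2 difference. RBBP4 over RBBP7 was 2.78 and 3.19 with siSFPQ-2, 2.81 and 2.84 with siSFPQ-3, against 2.48 and 2.21 in siCtrl, a log2 difference of 0.31. ARID4A over ARID4B was 0.418 and 0.435 with siSFPQ-2, 0.383 and 0.400 with siSFPQ-3, against 0.456 and 0.483 in siCtrl, a log2 difference of -0.20. The groups did not overlap in these 3 ratios, and each gave a two-sided exact permutation p of 0.0667 (0.0889 adjusted over 4 pairs). That is the smallest p this design allows, so it cannot reach 0.05. The share of other gene pairs whose ratios separate in this way is not given here, and 61.3% of single features did. Each of these 3 ratios also holds a gene whose change was called above, so the ratios are not separate evidence. SIN3A over SIN3B lay between 0.754 and 0.926 in siSFPQ and at 0.806 and 0.780 in siCtrl, and overlapped (log2 difference 0.05, exact permutation p = 0.8).

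Genes that overlap or lie within 1000 bases of these genes could share reads, since whether counting used strand is not stated. SAP30-DT, a divergent non-coding transcript that begins 255 bases from SAP30, fell as SAP30 did, with means of 39.6 ± 5.82 (SD, n = 4) in siSFPQ and 92.7 ± 24.0 (SD, n = 2) in siCtrl and a log2 fold change of -1.19 (limma, adjusted p = 0.00186). HDAC2-AS2, which overlaps the 5′ end of HDAC2 by 1448 bases on the other strand, fell by 0.78 on the log2 scale (adjusted p = 0.00626), with means of 66.0 in siSFPQ and 114 in siCtrl. TXLNG runs towards RBBP7 and overlaps its end by 179 bases, and it rose while RBBP7 fell, with means of 845 in siSFPQ and 499.7 in siCtrl and a log2 fold change of 0.76 (adjusted p = 0.000337). MAN2C1, 771 bases beyond the end of SIN3A, fell by 0.36 (adjusted p = 0.0316). MARCKSL1 next to HDAC1, RELL2 next to HDAC3, ZBTB8OS and SYNC next to RBBP4 and PSMA3-AS1 next to ARID4A did not pass. GGPS1, which overlaps the 5′ end of ARID4B by 964 bases, and TOMM20L-DT, which overlaps ARID4A by 3854 bases, were not analysed here. SYNC overlaps RBBP4 over 6306 bases, with at most 43.2 normalized reads in any library.

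The deposited profiles give the signal of each library in 500 bins along each gene, taken here as 100 bins before the gene, 300 within it and 100 after it. The mean profile of every library peaked in the first bin of the gene under that reading. Windows were compared as ratios within a library, which do not depend on how libraries were scaled. They were the start (the first 5 bins of the gene), the body (its last 270 bins), the early and late body (the first 90 and the last 90 of these) and the region past the end (the 100 bins after the gene). RBBP7 was left out, because its profile was at 0 in 5 of the 6 libraries, with signal only in the second siCtrl library, although its normalized reads were 399 to 570.5 in every library. It was 1 of 63 genes whose profile was at 0 in some library and summed to over 10000 in another. The authors' classes placed HDAC1 among the genes named up and the other 9 genes among those named ns, although ARID4B, SAP30, RBBP7 and ARID4A had an adjusted p under 0.05 in the authors' deposited table.

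Start signal relative to the body was lower on average in siSFPQ for 8 of the 9 genes, none of which passed the test. HDAC1 had start-to-body ratios of 3.87 and 3.95 with siSFPQ-2, 3.37 and 3.40 with siSFPQ-3, against 5.95 and 6.85 in siCtrl. All 4 siSFPQ ratios were below both siCtrl ratios, a log2 difference of -0.81 (SE 0.18, limma, adjusted p = 0.139). The HDAC1 body window averaged 148 ± 16.8 (SD, n = 4) in siSFPQ and 84.6 ± 2.45 (SD, n = 2) in siCtrl, while its start window averaged 540.0 ± 80.7 in siSFPQ and 542 ± 69.1 in siCtrl, as deposited and with the scaling of the profiles not stated. The window past the end was also higher in every siSFPQ library, with means of 199 ± 15.04 in siSFPQ (SD, n = 4) and 135 ± 21.6 in siCtrl (SD, n = 2). Among these windows the higher HDAC1 signal lay in the body and past the end, and the start windows of the groups overlapped. The HDAC1 summit was in bin 100, the last before the gene, in all libraries but the first siSFPQ-3 library. The start window leaves that bin out, so the ratio does not describe the summit. The window before the gene also overlapped between groups, with means of 171 in siSFPQ and 138 in siCtrl.

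SIN3A had start-to-body ratios of 9.39 and 8.17 with siSFPQ-2, 5.93 and 6.54 with siSFPQ-3, against 10.5 and 11.4 in siCtrl. Its log2 difference was -0.56 (SE 0.18, adjusted p = 0.215), with the siSFPQ-3 libraries the lowest. SIN3B (-0.56), ARID4B (-0.51) and HDAC2 (-0.51) also had all siSFPQ ratios below siCtrl, which makes 5 of the 9 genes beside 25.1% of all genes with profiles. HDAC3 (-0.39), ARID4A (-0.26) and RBBP4 (-0.16) overlapped. HDAC2-AS2, which fell, lies over the 5′ end of HDAC2, and GGPS1 over that of ARID4B. Their part in these ratios was not tested. SAP30 was the exception in sign, with 7.11, 8.09, 7.19 and 7.36 in siSFPQ libraries, against 6.45 and 5.61 in siCtrl, a log2 difference of 0.30 (adjusted p = 0.438), beside 8.85% of all genes with every siSFPQ ratio above siCtrl. The median log2 difference was -0.51 over the 9 genes and -0.18 over all 32887 genes tested. With limma 0 of the 9 genes passed, 3 had an unadjusted p under 0.05 (HDAC1, SIN3A and HDAC2), and of all genes 0.143% were called higher and 0.122% lower. The start window did not always hold the summit of a gene, as for HDAC1 above. ARID4B was highest in bin 43, before the gene, in the second siSFPQ-2 and first siSFPQ-3 libraries. In the second siSFPQ-3 and first siCtrl libraries it was highest in the last bin before the gene. Its window before the gene averaged 480 in siSFPQ and 463 in siCtrl, close to its start window (484 in siSFPQ, 500 in siCtrl).

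**Figure D3:**
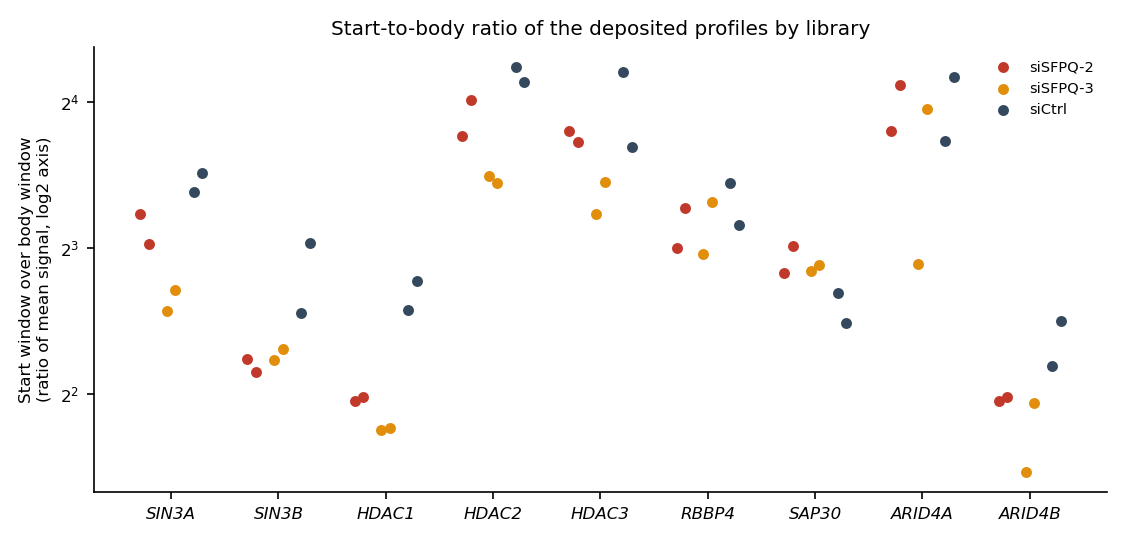
Ratio of mean signal in the start window to that in the body window (vertical log2 axis) for the 9 genes with profiles in all libraries, 1 point per library, with siSFPQ-2, siSFPQ-3 and siCtrl from left to right. In SIN3A, SIN3B, HDAC1, HDAC2 and ARID4B the 4 siSFPQ points lie below both siCtrl points, and in SAP30 above them.

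Along the body and past the end no gene passed the test. The late-to-early body ratio called 0 of the 9 genes with limma, none with an unadjusted p under 0.05, beside 0% of all genes. Its median log2 difference was 0.11, against -0.0011 over all genes, and only HDAC2 had every siSFPQ ratio below siCtrl, with a log2 difference of -0.25, beside 13.4% of all genes. SAP30 had an unusual shape in all libraries, with a second summit late in the gene: its late-to-early ratio was 12.3 and 22.2 with siSFPQ-2, 9.66 and 12.2 with siSFPQ-3, against 11.3 and 7.30 in siCtrl. Its highest bin was bin 339 in 3 libraries, 1 of each group, and bin 102 in the others. Signal past the end relative to the late body called 0 of the 9 genes, beside 0% of all genes, and only SIN3A had an unadjusted p under 0.05. SIN3A had ratios of 2.59 and 2.14 with siSFPQ-2, 2.13 and 2.17 with siSFPQ-3, against 3.33 and 3.68 in siCtrl, a log2 difference of -0.64 (adjusted p = 0.476). In every library the SIN3A signal past the end was highest in bins 481 to 490, with means of 380 to 462 in siSFPQ libraries, against 531 and 583 in siCtrl. MAN2C1, which fell, begins 771 bases beyond SIN3A on the same strand and may lie in that window, and its part in the ratio was not tested. HDAC1, HDAC3 and SIN3B also had all siSFPQ ratios below siCtrl, which makes 4 of 9 beside 13.2% of all genes.

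**Figure D4:**
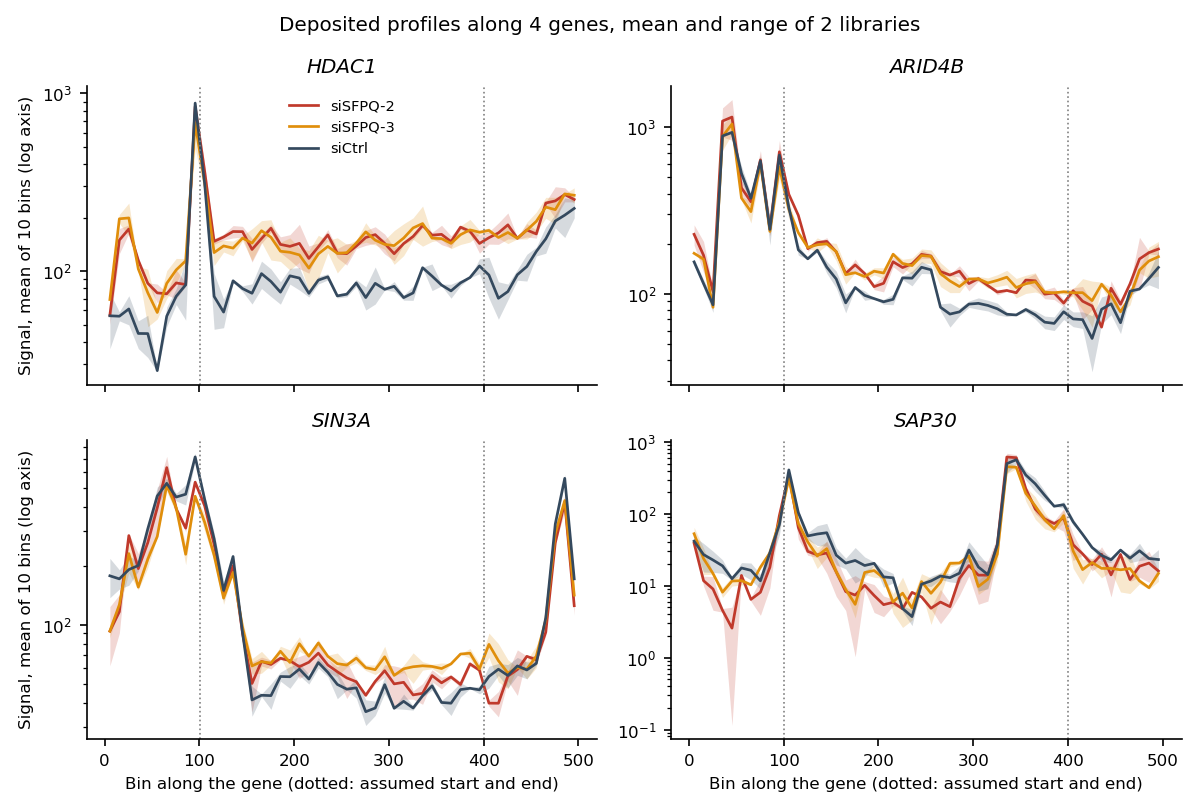
Deposited signal (vertical log axis, mean of 10 bins) along HDAC1, ARID4B, SIN3A and SAP30 by bin (horizontal axis), as mean lines and shaded ranges of 2 libraries per group, with dotted lines at the assumed gene start and end. The siSFPQ lines of HDAC1 and ARID4B run above siCtrl through the body, and SAP30 shows its late summit in every group.

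Other genes of the deacetylase network were read from 10 lists of complexes and enzymes that hold 93 genes, all tested. Of these 23 rose, 21 fell and 49 did not pass, with a median log2 fold change of 0.10. That is 47.3% called, beside 48.0% of all features (24.8% higher, 23.2% lower), the shares against which each list below stands. Among 14 other SIN3 subunits, only KDM5A, a histone demethylase (1809.6 ± 111 in siSFPQ, SD, n = 4, against 1151 ± 92.9 in siCtrl, SD, n = 2, log2 fold change 0.65), rose, and only BRMS1L (-0.37) fell. The other 12 did not pass, and the median of the list was 0.10. Of 14 DNA-bound recruiters of SIN3, 7 rose and 3 fell, with a median of 0.23. The repressor TGIF1 (1739 ± 100.95 in siSFPQ and 458 ± 19.2 in siCtrl, log2 fold change 1.92) and KLF10 (0.80) rose, while MNT (-0.80), a MAX partner, and KLF11 (-0.47) fell.

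Of the NuRD, CoREST and MiDAC and MIER lists, each held genes that rose and genes that fell. Of 11 NuRD genes 3 rose and 3 fell, with a median of 0.01: the remodeller CHD5 (1.91) and GATAD2B (0.76) rose, and CDK2AP1 (-0.65) and MBD3 (-0.51) fell. Of 10 CoREST genes 5 rose and 3 fell, with a median of 0.25: the demethylase KDM1A (0.43) and its scaffold RCOR1 (0.40) rose, and RCOR2 (-0.65) and ZMYM3 (-0.74) fell. Of 6 MiDAC and MIER genes MIDEAS (0.42) and DNTTIP1 (0.32) rose and MIER2 (-0.27) fell, with a median of -0.01. Of the 5 NCoR and SMRT genes, which work with HDAC3, TBL1XR1 rose (0.90) and the other 4 did not pass, with a median of 0.14.

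Of 10 genes of other complexes that hold RBBP4 or RBBP7, 5 fell, beside 23.2% of all features. The other 5 did not pass, and the median was -0.21. CHAF1A (-1.02) and CHAF1B (-0.67), subunits of chromatin assembly factor 1, fell most, and the Polycomb genes EZH2 (-0.39) and SUZ12 (-0.28) and the acetyltransferase HAT1 (-0.32) fell too. The list of proliferation genes stood at a median of -1.02, with CDK1 (-1.41) and PCNA (-1.03) lower, and its part in these changes was not tested. Among the other 8 zinc-dependent deacetylases 3 rose and 3 fell. HDAC9 had 1496 ± 419.8 (SD, n = 4) normalized reads in siSFPQ and 138 ± 12.8 (SD, n = 2) in siCtrl, a log2 fold change of 3.39, where HDAC1 had 0.69. HDAC5 (0.69) and the class I gene HDAC8 (0.52) also rose, and HDAC4 (-0.78) and HDAC10 (-0.75) fell. Of 7 sirtuins only SIRT3 (-0.43) passed, and of 9 histone acetyltransferases KAT6A (0.44) rose and KAT2A (-0.62) fell.

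**Figure D5:**
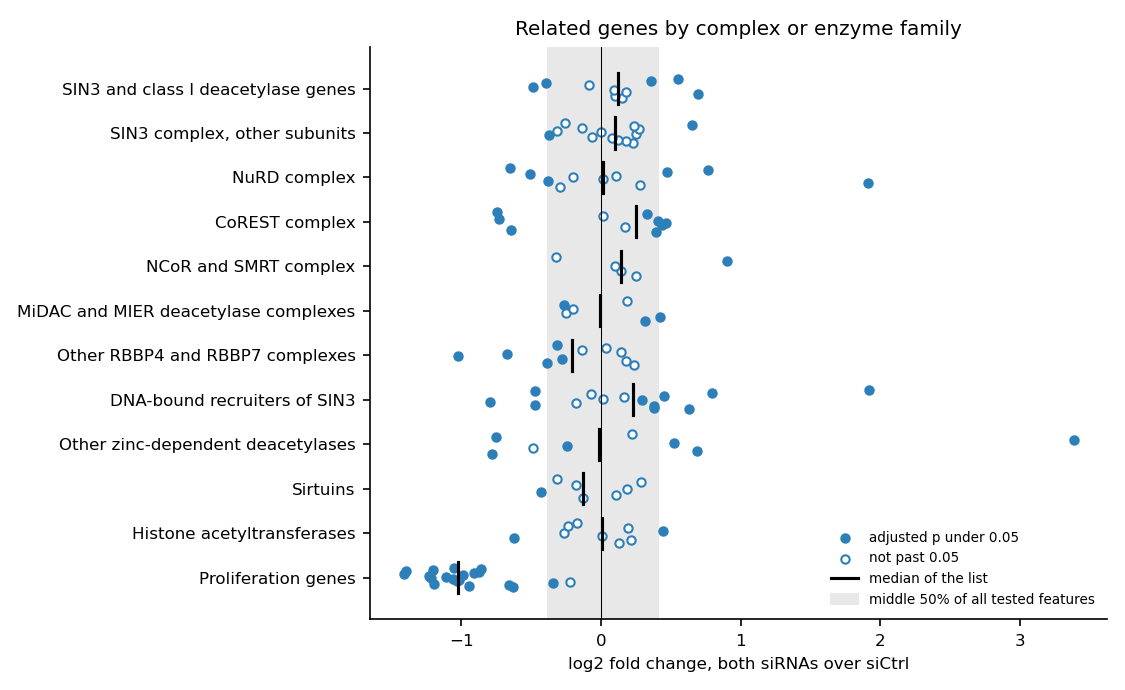
Log2 fold change, both siRNAs over siCtrl (horizontal axis), of the SIN3 and class I deacetylase genes and of each related list, 1 point per gene, filled where the adjusted p was under 0.05, with a bar at the median of each list. The grey band holds the middle 50% of all tested features. The proliferation list has a median of -1.02, and the far right point is HDAC9 at 3.39.

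Among 10886 features with a mean of at least 286.8 normalized reads, the pattern most like that of HDAC1 over the 6 libraries, by Pearson r on the log2 scale, was that of the NuRD subunit gene GATAD2A (r = 0.9989). TRIM8 (0.9979), PTTG1IP (0.9977), NFKB2 (0.9976) and STXBP3 (0.9976) followed. GATAD2A had 2956 and 3247 normalized reads with siSFPQ-2, 2870.0 and 3319 with siSFPQ-3, against 2232 and 2230.0 in siCtrl. NFKB2 moved along the same order of libraries but over a far wider range, from 967 to 1879 in siSFPQ and at 261 and 302 in siCtrl. These r values describe libraries that fall into groups, and 19.3% of the features compared had an r over 0.9 with HDAC1.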

How the data were processed

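For each feature and library the authors deposited a signal, the normalized reads, beside their own log2 fold change and adjusted p-value. The submitters' processing notes name DESeq2 1.38.1, SAMtools 1.3.1, cutadapt 1.14, UMI-tools and Bowtie2, with hg38 and dm6 as builds. Normalized reads were taken as the authors scaled them, so rises and falls are relative to that scaling. Whether the scaling keeps a change shared by all features was not tested. Annotation, counted region and strand use were not given in the sources used here. Deposited profiles are signal in 500 bins per gene and library, with bin sizes and scaling likewise not given.

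Of 26067 lines 240 repeats were removed, which left 25827 features. All values (100% at a tolerance of 0.1 read) were whole multiples of the value of 1 read (0.797 to 1.11), so whole reads were recovered for edgeR 4.0.16, which called 10531 features with both siRNAs, and DESeq2 1.42.0, which called 8800. The main test was limma 3.58.1 (trend) in R 4.3.3 on log2(value + 1), in 1 fit of 3 groups, tested on simulated data, and it called 10444. Between replicate libraries the chi-square of the reads was 11.0, 22.7 and 10.3 times its degrees of freedom for siSFPQ-2, siSFPQ-3 and siCtrl, beyond sampling noise.

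Window ratios were tested with limma over 32887 genes with body signal in all libraries, with a pseudocount of 0.138. The members and lists were chosen with earlier results of these data known. Named genes were SFPQ, the 10 genes, by smallest p up to 2 risen and 2 fallen genes of each related list (or 1 where none passed), and the 5 features most like HDAC1, and other genes were named after their values were seen. MIDEAS was matched by its older symbol ELMSAN1. Alternatives were other pseudocounts (0.5, 5), filters (none, 50), scaling to the same total, count tests, a replicate block and each library left out.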

Additional observations from a re-analysis of the deposited data

How the results depend on the processing

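Of 140 recomputed log2 fold changes of the 10 genes with both siRNAs, over 14 alternatives, 133 kept their direction and their side of the threshold, 6 lost their call and 1 reversed. The reversal was HDAC3, at -0.040 without siCtrl replicate 1 (adjusted p = 0.86, with 0.274 to 0.86 over its alternatives), and its values with each library left out ran from -0.040 to 0.233. The lost calls, given beside the genes, all came from leaving out a siCtrl library, where 1 siCtrl library remained and was assumed to vary like the other groups. With each library left out in turn, the genes called with both siRNAs numbered 1 to 3 higher and 0 to 2 lower, and the related genes 11 to 28 higher and 10 to 25 lower. The counts were 1 to 3 higher and 0 to 2 lower with siSFPQ-2, and 1 to 2 higher and 1 to 2 lower with siSFPQ-3. DESeq2 called 1 gene lower with siSFPQ-3, against 2 in limma. The share of all features called with a library left out is not given here. A general loss of calls thus cannot be told apart from a loss in these genes. For a count of 0, as for lower genes without a siCtrl library, the fit had fewer samples. The counts of 0 for window ratios and between siRNAs were 0 under every alternative run.

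The replicate numbers are not stated to mark shared cultures, and replicate differences correlated at 0.38 between siSFPQ-2 and siSFPQ-3 but at 0.05 and 0.06 with siCtrl. Same-numbered libraries thus deviated together between the siRNAs but not with siCtrl, and the fit reported above has no block. With the replicate block the genes called lower with siSFPQ-2 numbered 2, against 1 without it, and those higher with siSFPQ-3 numbered 3, against 2. The related genes then numbered 31 higher and 30 lower. The share of all features called with the block is not given here either, so a general gain of calls cannot be told apart. SFPQ passed with the block at -0.22 (adjusted p = 0.0492, with 0.0256 to 0.441 over its alternatives). Depth limits the low genes most, and the least read of the 10 genes in a library had 279 reads.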
